A study of Physcomitrium patens with 24 samples.

Results

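The genes described are the 7 phytochrome homologs of the moss Physcomitrium patens, taken by gene id from the study's list of circadian clock and light signalling genes, out of 32926 genes counted. They are PHY1 (Pp3c25_2610), PHY2 (Pp3c16_20280), PHY3 (Pp3c16_18760), PHY4 (Pp3c27_7830) and 3 genes of the PHY5 type, Pp3c3_23790, Pp3c12_9240 and Pp3c4_15350, which the list sets beside the Arabidopsis names PHYA, PHYB, PHYC, PHYD and PHYE in that order. The moss and seed plant families diversified separately, so these pairs of names do not mark direct counterparts. All 7 passed the filter on low counts, as did 21429 genes in all.

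Protonemata, the branching filaments that grow from a moss spore, were of the Gransden strain and 7 days old. They were grown on PpNH4 agar medium in alternating light and dark. The control stayed at 24 °C and the treated cultures were moved to 30 °C or to 37 °C, with harvests at 1, 6, 12 and 24 h. Each of the 12 groups had 2 biological replicates, so 24 poly(A)-selected RNA libraries were sequenced. The clock hour of each harvest is not given in the sources used here, so time in treatment and time of day cannot be told apart within a temperature. The libraries are of bulk tissue with more than a single cell type, in which fewer cells of a type and less RNA per cell cannot be told apart.

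Phytochromes are photoreceptors for red and far-red light. A bound bilin pigment lets each molecule switch between a red-absorbing form and a far-red-absorbing, active form, which acts in the nucleus through PIF transcription factors and the COP1/SPA ubiquitin ligase. In Arabidopsis, phytochrome B also reports temperature, because its active form reverts to the inactive one faster in the warm. In moss protonemata, phytochromes steer the growth of the tip cell by light direction and polarisation.

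Total counts ranged from 4552626 to 10696081 per library at 24 °C, from 4332911 to 9040288 at 30 °C and from 6358666 to 9102369 at 37 °C. The heat-inducible HSP20-like gene Pp3c16_7110, a small heat shock protein gene, lay between 0 and 1.60 CPM (read counts scaled to library size with TMM factors) in the 24 °C libraries, between 25.2 and 233 CPM at 30 °C and between 147 and 4866 CPM at 37 °C, so every heated library stood above every control library, while the ranges at 30 and 37 °C overlapped. Replicates were least alike after 1 h at 37 °C, where the correlation of log2 CPM between them was 0.955, and most alike after 12 h at 24 °C, at 0.99. Reads over a whole gene were counted without regard to strand, so a homolog cannot be told apart from a gene that overlaps it, and near-identical homologs may share reads. CPM values are not corrected for gene length and are compared between libraries, not between genes.

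At 37 °C the homologs moved in different directions. PHY3 was higher than at 24 °C at all 4 times, Pp3c3_23790 was lower up to 12 h, Pp3c12_9240 was lower after 1 and 12 h, PHY2 was lower after 1 h and back at the control level after 24 h, and PHY1, PHY4 and Pp3c4_15350 passed both thresholds at no time with the scaling used here. The thresholds were an adjusted p below 0.05 (edgeR quasi-likelihood test, Benjamini-Hochberg adjustment over all genes tested) and a change of 2-fold or more, a log2 fold change of 1 or -1, and a gene past both is called changed. After 1 h at 37 °C, 1 homolog was called higher and 3 lower, where 23.4% of all genes tested were called (12.7% higher, 10.7% lower). After 6 h it was 1 higher and 1 lower, where 31.3% of all genes were called (13.8% higher, 17.5% lower). At 12 h there were 1 higher and 2 lower, beside 35.4% of all genes (16.7% higher, 18.8% lower), and at 24 h 1 higher and 0 lower, beside 37.6% (18.0% higher, 19.5% lower). These calls came to 10 of 28 tests (35.7%), and over the same comparisons 31.9% of the tests of all genes were called, so the homologs were called about as often as genes in general. At 30 °C, 1 of 28 tests was called, where 3.53%, 1.12%, 2.66% and 18.7% of all genes were called after 1, 6, 12 and 24 h. Up to 12 h edgeR called 0 homologs at 30 °C, with 2, 3 and 4 of the 7 at an unadjusted p under 0.05 after 1, 6 and 12 h. DESeq2 called 2 of the 28 tests at 30 °C. Shares of all genes at that unadjusted p or by DESeq2 were not computed, so these counts have no background beside them.

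**Figure D1:**
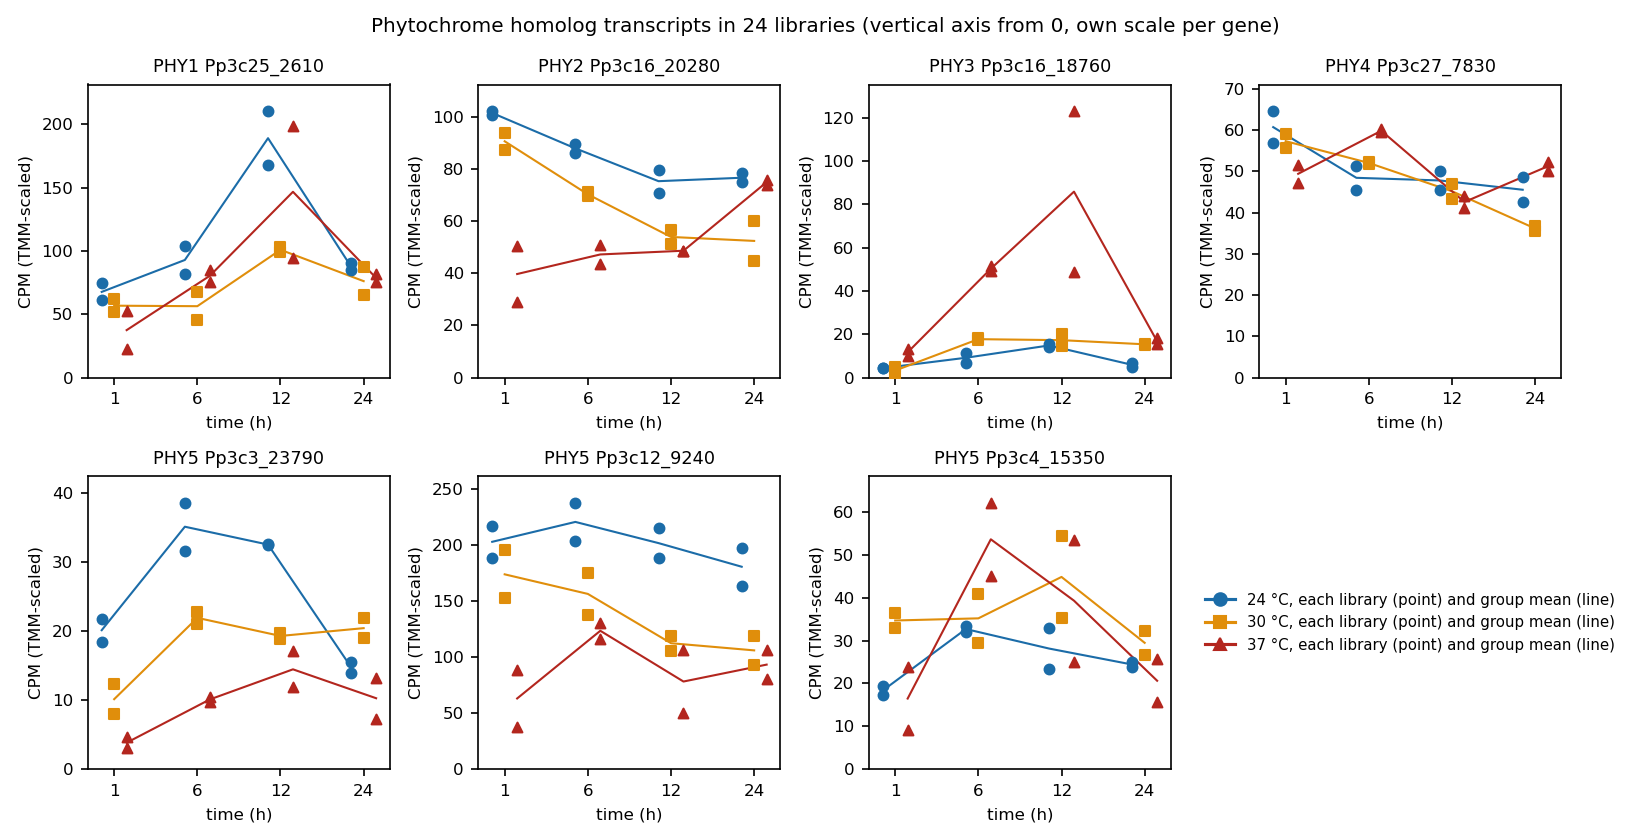
Level of each phytochrome homolog in each of the 24 libraries. The x axis is the time in treatment (h), with the times spaced evenly, and the y axis the TMM-scaled CPM, starting at 0 in each panel; points are libraries, colours are temperatures and lines join group means. PHY3 stood at 48.7 to 123 CPM after 6 and 12 h at 37 °C, above its libraries at 24 and 30 °C.

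PHY3, which pairs with PHY1 among the moss phytochromes, showed the widest range of the 7. In the 24 °C libraries it was at 4.35 and 4.36 CPM after 1 h, 6.96 and 11.3 after 6 h, 15.5 and 14.1 after 12 h, and 5.06 and 6.68 at 24 h. At 37 °C it was at 13.4 and 9.95 CPM after 1 h, 51.4 and 49.1 after 6 h, 48.7 and 123 after 12 h, and 18.2 and 15.3 at 24 h. At each time both 37 °C libraries were above both 24 °C libraries, and the 24 h libraries stood below those of 6 and 12 h. The log2 fold change was 1.42 after 1 h (SE 0.45, edgeR adjusted p = 0.018), 2.46 after 6 h (SE 0.37, adjusted p = 3.7e-05), 2.54 after 12 h (SE 0.36, adjusted p = 1.4e-05) and 1.53 after 24 h (SE 0.42, adjusted p = 0.0046). The 6 and 12 h responses were larger than the 1 h response by 1.04 and 1.11 on the log2 scale, which edgeR did not call (adjusted p = 0.2 and 0.14). The 12 h difference was called with library totals, and it was 1.63 without 37 °C 12 h replicate 1. The call at 1 h was lost when the counts were scaled by library totals (log2 fold change 0.95), with limma-voom (adjusted p = 0.1), and without 24 °C replicate 1 (adjusted p = 0.084), 24 °C replicate 2 (0.078) or 37 °C replicate 1 (0.11). The call at 24 h was lost with limma-voom treat, which tests against the size limit itself, and without 24 °C replicate 1. The 12 h replicates at 37 °C differed 2.53-fold, and the log2 fold change was 3.05 on replicate 2 alone and 1.71 on replicate 1 alone, called either way.

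At 30 °C, the PHY3 libraries overlapped the controls after 1 and 12 h and stood above them after 6 and 24 h. The libraries held 1.57 and 4.94 CPM after 1 h, 17.3 and 18.1 after 6 h, 19.9 and 14.6 after 12 h, and 15.2 and 15.5 at 24 h. The 24 h libraries had a log2 fold change of 1.41 (SE 0.42, edgeR adjusted p = 0.015), the one call among the homologs at 30 °C. It was lost with limma-voom (adjusted p = 0.058) and without 24 °C replicate 1 (0.13). The PHY3 response at 30 °C was larger after 24 h than after 1 h by 1.82 (edgeR adjusted p = 0.068), not called. That difference was called with DESeq2, library totals, no filter or only the libraries of the comparison. After 24 h, 37 °C minus 30 °C was 0.13 on the log2 scale (95% interval -0.63 to 0.89, adjusted p = 0.79). After 1, 6 and 12 h the 37 °C level was higher than at 30 °C by 1.84, 1.50 and 2.30, each called. The 1 h call was lost with limma-voom (adjusted p = 0.062), with only the libraries of that comparison (0.13) and without 30 °C replicate 1 (0.1), and its value ran from 1.24 without that library to 2.89 without 30 °C replicate 2.

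The PHY5-type homologs belong to the remaining moss phytochrome clade, and the 3 genes did not move alike. Pp3c3_23790 held 18.5 and 21.8 CPM after 1 h at 24 °C, 31.6 and 38.6 after 6 h, 32.7 and 32.4 after 12 h, and 13.9 and 15.6 at 24 h. At 37 °C it held 3.05 and 4.59 CPM after 1 h, 9.68 and 10.5 after 6 h, 11.9 and 17.0 after 12 h, and 7.32 and 13.2 at 24 h. Each 37 °C library was below the 24 °C libraries of its time, and on the log2 scale the difference was smaller after 12 and 24 h than after 1 h. The log2 fold change was -2.40 after 1 h (SE 0.30, edgeR adjusted p = 7.7e-06), -1.80 after 6 h (SE 0.25, adjusted p = 1.7e-05), -1.16 after 12 h (SE 0.24, adjusted p = 0.00062) and -0.54 after 24 h (adjusted p = 0.092). Against the 1 h response, the response was less negative by 1.24 after 12 h (adjusted p = 0.018) and by 1.87 after 24 h (adjusted p = 0.0013), both called. The 1 h and 6 h calls held in every alternative run, and the 12 h call was lost without 37 °C replicate 1 (log2 fold change -0.93).

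Pp3c3_23790 also stood lower at 30 °C after 1 h, at 8.00 and 12.3 CPM. That log2 fold change of -0.99 (SE 0.27, adjusted p = 0.03) passed on p and fell just short on size, and it was called without 30 °C replicate 2 (-1.33). It was also called with RLE scaling, library totals, limma-voom with or without quality weights and DESeq2, with values of -1.01 to -1.08, so its place relative to the size limit depends on the setting. At the later times the 30 °C libraries held 18.9 to 22.8 CPM, lower than the control libraries after 6 and 12 h and higher after 24 h, with no call. The change in response from 1 to 24 h at 30 °C was 1.46 (SE 0.37, adjusted p = 0.011), called with all libraries and lost without 30 °C replicate 1 of 1 h. Over the 6 comparisons of a later response with the 1 h response, 4 of 42 tests of the homologs were called, 3 of them for this gene and 1 for PHY2. In those comparisons 23.1%, 27.9% and 31.0% of all genes were called at 37 °C after 6, 12 and 24 h, and 0.663%, 1.67% and 12.3% at 30 °C.

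Pp3c12_9240, of the same type, was called lower at 37 °C after 1 and 12 h. Its 24 °C libraries held between 164 and 238 CPM at all 4 times. At 37 °C it held 88.4 and 37.9 CPM after 1 h, 116 and 131 after 6 h, 50.5 and 106 after 12 h, and 80.5 and 106 at 24 h, so no 37 °C library reached the lowest control library. The log2 fold change was -1.68 after 1 h (SE 0.33, edgeR adjusted p = 0.00069) and -1.36 after 12 h (SE 0.33, adjusted p = 0.0019), both called, and -0.84 after 6 h and -0.95 after 24 h, which passed on p (0.038 and 0.019) and not on size. The 24 h value was called without 24 °C replicate 1 (-1.08) or 37 °C replicate 2 (-1.17). The replicates differed 2.33-fold after 1 h, where the value was -2.44 without 37 °C replicate 1 and -1.21 without replicate 2, called either way. They differed 2.1-fold after 12 h, and that call was lost without 37 °C replicate 1 (-0.93). At 30 °C the level was 153 and 196 CPM after 1 h, 138 and 176 after 6 h, 106 and 119 after 12 h, and 93.2 and 119 at 24 h, and none of the 4 differences was called. Over the 4 times, the mean log2 fold change at 30 °C was -0.58 (adjusted p = 0.0098), below the size limit.

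Pp3c4_15350, also of the PHY5 type, was called against 24 °C at no time. Its libraries held 17.2 to 33.3 CPM at 24 °C, 26.6 to 54.4 at 30 °C and 9.18 to 62.2 at 37 °C. The mean log2 fold change over the 4 times was 0.20 at 37 °C (95% interval -0.20 to 0.60, edgeR adjusted p = 0.37) and 0.49 at 30 °C (adjusted p = 0.051). Neither was called. After 1 h the log2 fold change was -0.14 at 37 °C, and it was -1.01 without 37 °C replicate 1 and 0.37 without replicate 2. Against 30 °C the 1 h value was -1.06 (adjusted p = 0.06), called with DESeq2, library totals or no filter and without 37 °C replicate 1. Its replicates differed 2.59-fold after 1 h and 2.13-fold after 12 h at 37 °C.

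PHY2, which pairs with PHY4 among the moss phytochromes, was lower early at 37 °C and then returned. It held 102 and 101 CPM after 1 h at 24 °C, 86.3 and 89.5 after 6 h, 70.9 and 79.7 after 12 h, and 78.3 and 75.0 at 24 h. At 37 °C it held 50.4 and 29.1, then 43.4 and 51.0, then 48.7 and 48.6, and after 24 h 74.0 and 75.9 CPM. The libraries did not overlap up to 12 h and overlapped at 24 h. The log2 fold change was -1.35 after 1 h (SE 0.19, edgeR adjusted p = 2.7e-05), called, then -0.90 (adjusted p = 0.00065) and -0.63 (0.0077), below the size limit, and -0.03 after 24 h (0.89). The response after 24 h differed from that after 1 h by 1.32 (SE 0.26, adjusted p = 0.00075), a call lost without 37 °C replicate 2 of 1 h. At 30 °C it held 87.3 and 94.0 CPM after 1 h and 44.8 and 60.0 after 24 h, where the log2 fold change of -0.55, the largest in size of the 4 times, passed on p (0.03) and not on size.

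PHY4 varied least. It lay between 42.5 and 64.6 CPM at 24 °C, between 35.6 and 58.9 at 30 °C and between 41.1 and 60.2 at 37 °C. The mean log2 fold change at 37 °C was 0.00 (95% interval -0.12 to 0.13, edgeR adjusted p = 0.98), an interval that leaves out any mean change of the size called for PHY3, and with library totals it was -0.10. This mean covers -0.30 after 1 h (edgeR adjusted p = 0.057) and 0.30 after 6 h (0.038), the latter passing on p and not on size. The difference of these responses (0.60, 0.011), the value after 24 h at 30 °C (-0.33, 0.041) and that of 37 against 30 °C after 24 h (0.50, 0.002) did likewise. In the alternative runs the 1 h value of PHY4 at 37 °C reached -0.77 and was not called. Changes in its response did gain calls with library totals, at 37 °C from 1 to 6 h and from 1 to 24 h. With TMM scaling PHY4 had 0.47 for the latter change (edgeR adjusted p = 0.035), passing on p and not on size. The range of its 12 group means was 0.74 on the log2 scale, at percentile 5.22 of all genes tested, against 4.66 and percentile 94.5 for PHY3. The other ranges were 3.13 for Pp3c3_23790, 2.44 for PHY1, 1.92 for Pp3c12_9240, 1.82 for Pp3c4_15350 and 1.40 for PHY2, beside a median of 1.91 over all genes.

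PHY1 was called between times at 24 °C and not between temperatures. At 24 °C it held 60.9 and 74.5 CPM after 1 h, 81.7 and 104 after 6 h, 168 and 210.5 after 12 h, and 84.9 and 90.2 at 24 h. The 12 h level stood above all other 24 °C libraries, higher than 1 h by 1.48 on the log2 scale (SE 0.33, edgeR adjusted p = 0.0027), with the 24 h level lower than 12 h by a log2 fold change of -1.11 (adjusted p = 0.022). PHY3 had a like course at 24 °C, with 1.77 from 1 to 12 h (SE 0.43, adjusted p = 0.0049) and -1.35 from 12 to 24 h (adjusted p = 0.027), and Pp3c3_23790 had -1.14 from 12 to 24 h (adjusted p = 0.0032). In these comparisons 14.1% (12 against 1 h) and 10.4% (24 against 12 h) of all genes were called, and no homolog was called between 6 and 1 h or between 24 and 1 h, where 13.8% and 3.74% were. The PHY3 call from 12 to 24 h was lost on leaving out any of the 4 libraries, and that of PHY1 on leaving out any of 3 of them.

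At 37 °C PHY1 held 52.2 and 22.8 CPM after 1 h, 75.9 and 84.9 after 6 h, 94.8 and 199 after 12 h, and 75.6 and 81.8 at 24 h. The replicates differed 2.30-fold after 1 h and 2.10-fold after 12 h, and without 37 °C replicate 1 the 1 h log2 fold change was called (-1.59, against -0.85 with both), as it was with counts scaled by library totals (-1.31). At 30 °C the 12 h libraries held 103 and 99.1 CPM, below both control libraries of that time.

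**Figure D2:**
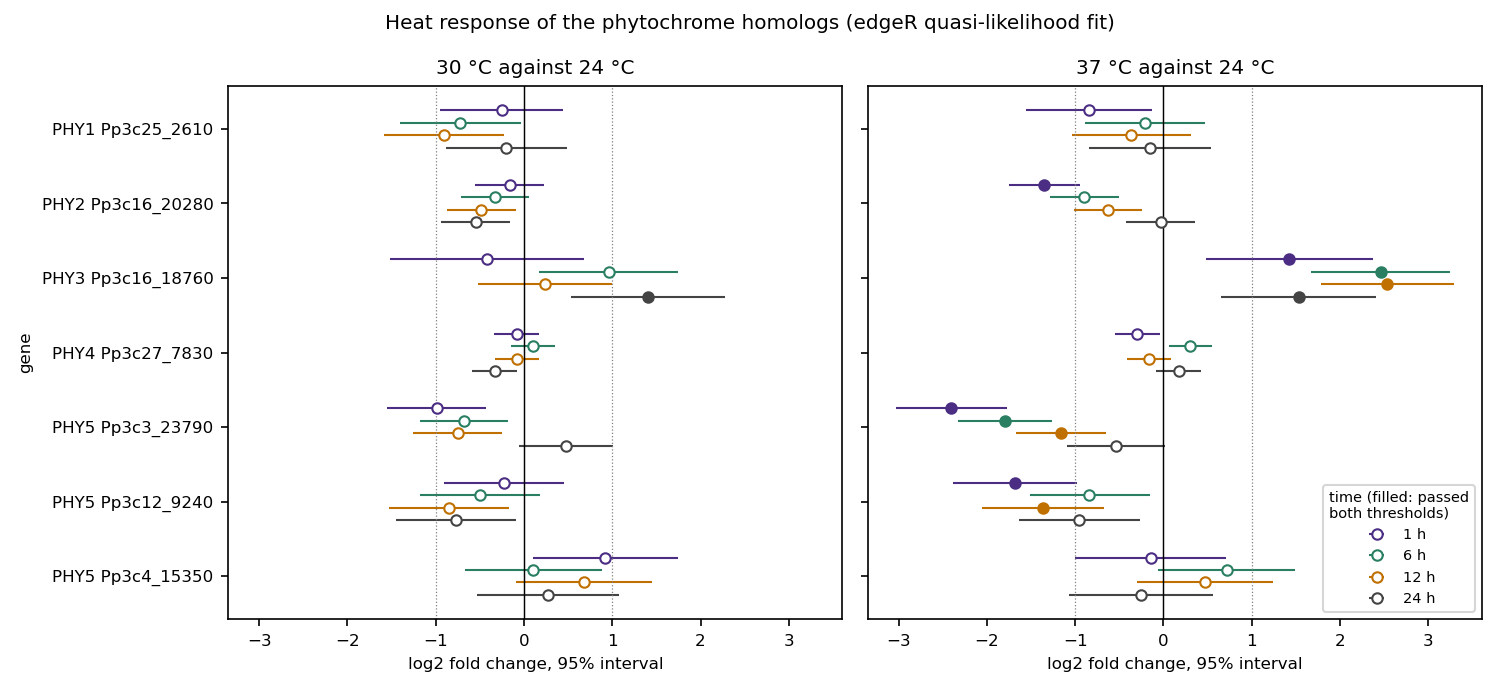
Log2 fold change of each homolog against the 24 °C group of the same time, at 30 °C and at 37 °C. The x axis is the log2 fold change with its 95% interval from edgeR, rows are genes and colours are times; filled points passed both thresholds. At 37 °C the PHY3 points lie between 1.42 and 2.54, those of Pp3c3_23790 between -2.40 and -0.54, and those of PHY4 between -0.30 and 0.30.

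Set side by side over the 4 times, the mean log2 fold change at 37 °C was 1.99 for PHY3 (SE 0.20, edgeR adjusted p = 8.6e-08), -1.47 for Pp3c3_23790 (SE 0.13, adjusted p = 2.3e-08) and -1.21 for Pp3c12_9240 (SE 0.16, adjusted p = 3.5e-06), all 3 called, where 31.8% of all genes were called. PHY2 had -0.73 (adjusted p = 1.8e-06) and PHY1 -0.39 (adjusted p = 0.041), below the size limit. At 30 °C no mean was called, where 6.01% of all genes were, and the values ran from -0.58 for Pp3c12_9240 to 0.55 for PHY3. Passing on p and not on size were PHY1 (-0.52, edgeR adjusted p = 0.021), PHY2 (-0.38, 0.0042), Pp3c3_23790 (-0.49, 0.0061) and Pp3c12_9240 (0.0098), all lower. PHY3 and Pp3c4_15350 had higher means, with adjusted p = 0.057 and 0.051. Against 30 °C, the 37 °C libraries gave 4, 2, 1 and 1 calls at 1, 6, 12 and 24 h, where 13.6%, 23.5%, 27.6% and 29.0% of all genes were called. After 1 h these were PHY2 (-1.19), Pp3c3_23790 (-1.41) and Pp3c12_9240 (-1.46), lower at 37 °C, and PHY3, higher. All 4 of these calls were lost with only the libraries of the comparison. Those of PHY2 (-0.84) and Pp3c12_9240 (-0.97) were also lost without 37 °C replicate 2, and that of Pp3c3_23790 (-1.07) without 30 °C replicate 2. Pp3c3_23790 was lower also after 6 h (-1.12) and 24 h (-1.01), the latter lost without 30 °C replicate 2 (-0.91) or 37 °C replicate 1 (-0.63).

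**Figure D3:**
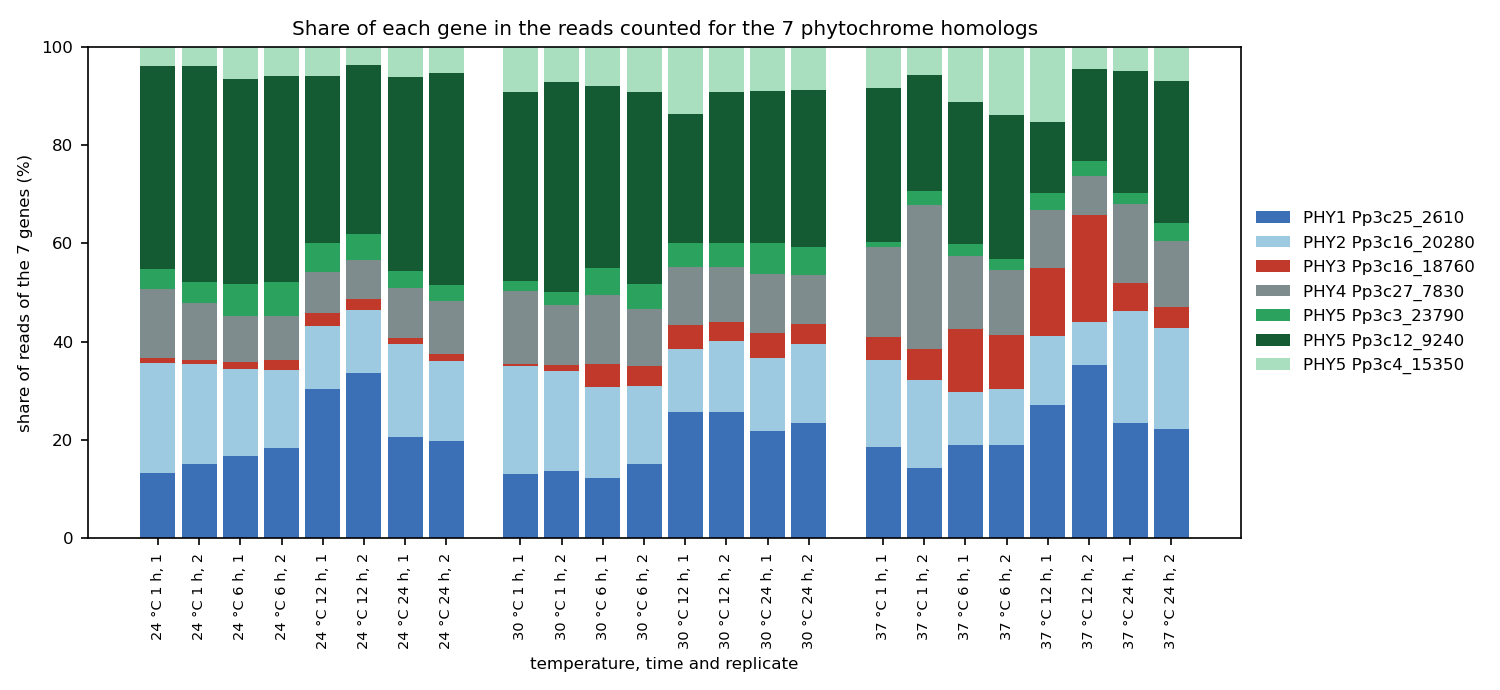
Share of the reads of the 7 homologs taken by each gene in each library. The y axis is the share in percent, not corrected for gene length, and each bar is a library, ordered by temperature and time. PHY3 took 0.881 to 2.81% at 24 °C and 4.16 to 21.9% at 37 °C.

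The makeup of the family's reads differed between temperatures, and the share of a gene depends also on the levels of the others. PHY3 took a median of 1.44% of the reads of the 7 genes in the 24 °C libraries, 4.10% at 30 °C and 8.57% at 37 °C, and the 24 and 37 °C libraries did not overlap. Pp3c12_9240 took a median of 41.6%, 34.5% and 26.9% at the same temperatures. PHY4 took a median of 9.81%, 11.8% and 14.3%, while its median level was 49.3, 49.4 and 50.8 CPM. The summed level of the 7 genes was 476 ± 26.9 CPM (SD, n = 2) after 1 h at 24 °C and 222 ± 86.3 after 1 h at 37 °C. At 37 °C it stood at 425 ± 32.6, 456 ± 151 and 346 ± 31.4 CPM after 6, 12 and 24 h, beside 527 ± 55.4, 590 ± 51.0 and 436 ± 30.9 in the controls.

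Replicate differences were uneven across the family. After 12 h at 37 °C, replicate 2 was higher for PHY3, PHY1, Pp3c12_9240 and Pp3c3_23790, replicate 1 was higher for Pp3c4_15350, and PHY2 and PHY4 differed 1.00-fold and 1.07-fold. After 1 h at 37 °C, replicate 1 was higher for PHY1, PHY2, Pp3c12_9240 and Pp3c4_15350 (1.73-fold to 2.59-fold) and for PHY3 (1.35-fold), replicate 2 was higher for Pp3c3_23790 (1.50-fold), and PHY4 differed 1.09-fold. Over all genes tested, the median difference between replicates was 1.28-fold after 1 h and 1.21-fold after 12 h at 37 °C, and 1.13-fold to 1.19-fold in the other 10 groups (CPM plus 0.5). The part of these differences in the results was not tested.

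Over the 12 group means of log2 CPM, Pearson's correlation was 0.84 for PHY2 with Pp3c12_9240, 0.711 for Pp3c3_23790 with Pp3c12_9240 and -0.68 for PHY2 with PHY3. The points share libraries and scaling factors, and the values are a description. Among all other genes, the patterns most like PHY3 were those of Pp3c10_21120 (0.976) and Pp3c1_36240 (0.965), and those most like Pp3c3_23790 were Pp3c1_36370 (0.979) and Pp3c3_38010 (0.97). For PHY2 they were Pp3c9_5352 (0.944) and Pp3c6_4940 (0.933), and for Pp3c12_9240 they were Pp3c8_7820 (0.951) and Pp3c25_10040 (0.934).

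Other genes of the light signalling pathway were taken as a list of 18, all of which passed the filter. The list holds HY2 (Pp3c13_10580), picked from the study's genes raised after 1 h at 37 °C in these samples. Its call there, 1 of the 6 below, was thus fixed beforehand and is no evidence about the list. The counts and medians below include it. At 37 °C, 6 were called higher and 1 lower after 1 h, 3 and 2 after 6 h, 2 and 4 after 12 h, and 4 and 3 at 24 h, with the same percentages of all genes as above. At 30 °C, 1 was called higher after 1 h, again HY2, where 3.53% of all genes were called. After 24 h at 30 °C, 1 was called higher and 7 lower, beside 18.7% of all genes. After 6 and 12 h at 30 °C edgeR called 0, with 2 and 6 genes at an unadjusted p under 0.05, for which no share of all genes was computed. The median log2 fold change of the 18 genes was 0.67, 0.01, -0.26 and 0.22 at 37 °C and 0.10, 0.01, -0.24 and -0.38 at 30 °C after 1, 6, 12 and 24 h, beside medians of all genes between -0.01 and 0.08. Scaled by library totals, 3 of the list were called higher and 2 lower after 1 h at 37 °C.

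HY2 (Pp3c13_10580), phytochromobilin synthase, makes the pigment that phytochromes bind. It rose from 43.8 ± 0.330 CPM (SD, n = 2) after 1 h at 24 °C to 112 ± 12.1 at 30 °C and 374 ± 24.5 at 37 °C, log2 fold changes of 1.36 (SE 0.20, edgeR adjusted p = 0.00045) and 3.09 (SE 0.21, adjusted p = 6e-09). It was called at no later time. The study listed this gene among those raised after 1 h at 37 °C in these samples, so its direction is not independent evidence.

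PIF proteins bind the active form of phytochrome. Of the 3 PIF-like genes, Pp3c14_23520 was higher at 37 °C by 1.53, 1.97 and 1.85 on the log2 scale after 6, 12 and 24 h, and Pp3c1_38820 had log2 fold changes of -1.20, -1.23 and -1.09 after 1, 12 and 24 h. COP1 is the ubiquitin ligase that phytochromes inhibit in the light. After 1 h at 37 °C, 4 of its 9 homologs were called higher, where 12.7% of all genes were. Scaled by library totals, 2 were called higher. The spread of the 4 was uneven. Pp3c13_21340 was at 25.34 ± 25.04 CPM (SD, n = 2), beside 2.76 ± 0.459 in the 1 h control. Pp3c1_13190 was at 46.4 ± 27.7, beside 16.7 ± 2.01, and Pp3c6_5030 at 433 ± 115, beside 120 ± 0.0859. How far these calls rest on single libraries was not tested. Of the 9 homologs at 37 °C, 2 were called higher and 1 lower at 6 h, 1 and 2 at 12 h, and 3 and 1 at 24 h. Among them Pp3c5_26150 was at 131 ± 1.01 CPM after 1 h at 24 °C and 345 ± 5.66 after 1 h at 37 °C (1.40), and had log2 fold changes of -2.10, -2.82 and -1.87 after 6, 12 and 24 h at 37 °C. All these changes of the PIF-like and COP1 genes were called. In the controls it stood at 19.6, 5.37 and 186 CPM after 6, 12 and 24 h, and after 24 h at 30 °C it was at 8.49 ± 1.23 (-4.45). Pp3c6_5030, another COP1 homolog, was at 105 ± 3.51 CPM in the 24 h control and 12.6 ± 4.42 at 30 °C (-3.05). Pp3c1_13190 went the other way after 24 h at 30 °C (1.60, called). In that comparison 1 of the 9 COP1 homologs was called higher and 3 lower, where 18.7% of all genes were called.

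SPA proteins work with COP1. After 24 h at 30 °C both SPA1 homologs, Pp3c2_15860 (-1.45) and Pp3c1_24850 (-1.36), were called lower, where 18.7% of all genes were called. At 37 °C Pp3c2_15860 was called lower after 6 h (-1.09) and Pp3c1_24850 after 24 h (-1.09), where 31.3% and 37.6% of all genes were called. DET1, a further repressor of light responses, had 1.27 after 1 h and -1.87 after 12 h at 37 °C and -1.98 after 24 h at 30 °C (Pp3c19_5540), all called. The 2 cryptochromes, which are blue light receptors, gave 0 calls by edgeR in 16 tests against 24 °C. Of these tests, 5 had an unadjusted p under 0.05, for which no share of all genes was computed. The largest log2 fold change, chosen after its value was seen, was 0.86 for Pp3c7_20480 after 1 h at 37 °C (edgeR adjusted p = 3e-04).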

How the data were processed

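The deposited values were raw read counts per gene, not normalized, for 24 libraries. The authors demultiplexed with bcl2fastq 1.8.4, aligned paired reads to the genome Ppatens_318_v3.3 with BWA-MEM (BWA 0.7.17.1) and counted whole genes with featureCounts at its default setting, which ignores strand.

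In R 4.3.3, genes with more than 0.5 CPM in at least 2 libraries were kept (21429 of 32926), scaled by TMM and fitted with 1 edgeR 4.0.16 quasi-likelihood model of the 12 groups. Comparisons of 30 and 37 °C with 24 °C share control libraries. The Benjamini-Hochberg adjustment ran over all genes tested, separately for each comparison. The standard error is the size of the log2 fold change over the square root of F, and with a spread shared across groups it may be too small for 37 °C after 1 h.

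The homologs and the light signalling list were chosen with earlier results of these data known. Named genes were all 7 homologs, the HSP20-like gene and, by size of change among those called, up to 2 genes of each list group. Outside this rule, 1 cryptochrome and the COP1 homologs Pp3c6_5030 and Pp3c1_13190 were named. Also named were the 2 genes with the most similar group means (mean log2 CPM at least 1) for each homolog called against 24 °C. Alternatives were DESeq2 1.42.0, limma 3.58.1 (voom with eBayes, treat or quality weights), RLE or library-total scaling, other filters, a replicate block, smaller sets of libraries and each library left out. The fit was tested on simulated data. A library index sequence was shared by all libraries of a temperature, so index and temperature cannot be told apart.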

Additional observations from a re-analysis of the deposited data

Results flagged for a closer look

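The response to heat differed between times in 4 of 42 tests of the difference itself (edgeR interaction terms, adjusted over all genes). That is 9.52% of the tests, beside 16.1% of the tests of all genes, so the homologs were not called more often than genes in general. For Pp3c3_23790 the log2 fold change at 37 °C was higher after 12 h than after 1 h by 1.24 (SE 0.39, adjusted p = 0.018), from -2.40 to -1.16, and after 24 h by 1.87 (SE 0.40, adjusted p = 0.0013), to -0.54. The 12 h difference was lost without 24 °C 1 h replicate 2, 37 °C 1 h replicate 1 or 37 °C 12 h replicate 2. At 30 °C the same gene differed between 24 and 1 h by 1.46 (SE 0.37, adjusted p = 0.011). For PHY2 (Pp3c16_20280) the response at 37 °C was higher after 24 h than after 1 h by 1.32 (SE 0.26, adjusted p = 0.00075), from -1.35 to -0.03. The 3 differences at 37 °C share the 1 h libraries, whose replicates differed 1.73-fold for PHY2 and 1.50-fold for Pp3c3_23790, and the part of that spread in them was not tested.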

How the results depend on the processing

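Over 168 values of the 7 homologs (24 comparisons), 2968 recomputed values were set beside those reported: no call changed direction, 62 lost a call and 63 gained one, and the cause was not tested except where noted. Of 28 tests each, calls at 37 °C against 24 °C numbered 10, 4 with limma-voom treat, which tests against the size limit itself, and 8 to 12 with each library left out, 8 without 37 °C 12 h replicate 1. The 4 calls kept with treat were those of PHY3 after 6 and 12 h and of Pp3c3_23790 after 1 and 6 h. Without the 1 h libraries at 37 °C, 6 of the other 21 tests were called, the same number as with them. At 30 °C the 1 call became 2 with RLE scaling, library totals, quality weights or DESeq2, 0 with treat, 4 with no fold change limit, and 0 (without 24 °C 24 h replicate 1) to 2 (without 30 °C 1 h replicate 2) with a library left out. Against 30 °C, the 8 calls became 1 with treat, 4 with only the libraries of each comparison, and 6 to 10 with a library left out. The 5 calls between times at 24 °C became 0 with treat and 10 with no fold change limit, and 3 to 5 with a library left out, 3 without 24 °C 12 h replicate 2, 24 °C 24 h replicate 1 or 24 °C 24 h replicate 2. The 4 changes in response became 11 with library totals, 0 with treat, 7 with no fold change limit, and 3 to 10 with a library left out, 10 without 37 °C 1 h replicate 1. The 3 mean responses became 2 with treat (Pp3c12_9240 lost, adjusted p = 0.26) and 9 with no fold change limit and stayed 3 with any library left out. What percentage of all genes each alternative run called was not computed. Library totals moved the median of all genes by -0.47 after 1 h at 37 °C, and the share of higher calls there from 54.3% to 27.3%. At 30 °C that share went from 69.7% to 54.6% after 1 h, from 60.4% to 76.2% after 12 h and from 49.7% to 67.2% after 24 h.

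Of 66 pairs of groups, 21 had replicate differences correlated above 0.1 (median 0.03, highest 0.331). With the replicate number as a block the counts were 10, 1, 8, 5, 4 and 3 in the order above, and none of the 168 calls changed. The block takes up only a shift common to all 12 groups, and pairing of samples within some groups was not tested. With 2 replicates per group and spreads above 2-fold after 1 and 12 h at 37 °C, changes near the size limit rest on single libraries there. The lowest homolog count in a library was 9 reads, for PHY3 after 1 h at 30 °C.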
